A study of Homo sapiens with 9 samples.

Results

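The 50 genes described here encode proteins that copy DNA or prepare cells for S phase. They were taken by symbol from a list of 50 names. No measured value entered this rule, but the list was chosen with earlier results of these data known. All 50 were among the 58735 genes of the count table, and all 50 passed the filter on low counts that left 14975 genes for testing. RNA-seq of polyadenylated RNA was done on THP-1 cells, an established human acute myeloid leukaemia line that carries the MLL-AF9 fusion. The cells received shRNA-143 or shRNA-146, which are different hairpins against NFATC2, or a non-targeting control shRNA, and each of these 3 groups had 3 libraries. All 9 libraries came from bulk cells that were spinoculated with lentivirus made in 293T cells, placed in puromycin after 24 hours and harvested at 48 hours, so the control cells went through virus and drug selection as well. The series calls the replicates biological and numbers them 1 to 3, but nothing in the sources used here states that they were separate cultures. The p-values therefore cover the spread between libraries alone, part of which could be technical.

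Replication is licensed in G1, when the origin recognition complex, CDC6 and CDT1 load the MCM helicase onto DNA. In S phase the kinase of CDC7 and DBF4, with cyclin-dependent kinases, activates the loaded helicase by recruiting CDC45 and the GINS complex, and the polymerases, the sliding clamp PCNA and its loaders copy the DNA behind it. E2F transcription factors drive many of these genes as cells leave G1, which is why their transcripts are widely read as a sign of proliferation. NFATC2 is a transcription factor that the phosphatase calcineurin sends to the nucleus.

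The promoters of 4 genes picked from the results below are shown in full. GINS1 and CHAF1B passed an adjusted p under 0.05 with all 9 libraries, although only once replicate numbers were fitted as a block. In each comparison with control 2% of the 50 then passed, against 3.17% to 5.74% of all genes. MCM7 was the gene whose shRNA libraries all lay below control in TMM-scaled CPM (2% of the 50, against 2.77% of all genes). PCNA had the highest level per length. Each runs 5′ to 3′ along its gene from 250 bases before to 50 bases after the RefSeq start (GRCh38.p14), at chr20:25407423-25407722 (plus strand) for GINS1, chr21:36385142-36385441 (plus) for CHAF1B, chr7:100101348-100101647 (minus) for MCM7 and chr20:5126573-5126872 (minus) for PCNA. Capitals mark matches to the E2F letters TTTCCCGC, TTTCGCGC, TTTGGCGC or TTTGCCGC, searched on both strands.
GINS1: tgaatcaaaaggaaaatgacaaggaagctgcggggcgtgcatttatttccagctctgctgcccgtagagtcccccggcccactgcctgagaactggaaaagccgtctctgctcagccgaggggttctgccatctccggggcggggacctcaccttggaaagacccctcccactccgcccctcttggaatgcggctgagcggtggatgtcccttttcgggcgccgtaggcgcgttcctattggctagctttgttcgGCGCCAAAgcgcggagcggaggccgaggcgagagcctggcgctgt
CHAF1B: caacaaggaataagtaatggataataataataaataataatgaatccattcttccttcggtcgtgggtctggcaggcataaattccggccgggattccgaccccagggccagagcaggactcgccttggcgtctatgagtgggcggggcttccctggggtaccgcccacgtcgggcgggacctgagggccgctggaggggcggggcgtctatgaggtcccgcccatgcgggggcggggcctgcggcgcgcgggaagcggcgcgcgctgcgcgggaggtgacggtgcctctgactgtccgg
MCM7: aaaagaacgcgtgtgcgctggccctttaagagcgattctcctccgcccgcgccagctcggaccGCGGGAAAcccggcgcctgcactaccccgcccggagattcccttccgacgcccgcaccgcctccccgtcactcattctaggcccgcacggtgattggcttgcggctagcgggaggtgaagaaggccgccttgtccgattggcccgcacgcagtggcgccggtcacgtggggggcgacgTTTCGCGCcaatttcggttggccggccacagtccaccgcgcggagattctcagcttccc
PCNA: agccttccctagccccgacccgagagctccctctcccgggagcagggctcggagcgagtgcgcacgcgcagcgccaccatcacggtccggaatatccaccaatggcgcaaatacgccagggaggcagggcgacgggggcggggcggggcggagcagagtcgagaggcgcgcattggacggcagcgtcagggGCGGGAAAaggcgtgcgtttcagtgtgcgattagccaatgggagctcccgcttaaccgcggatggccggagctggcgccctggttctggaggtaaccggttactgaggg

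GINS1 held an E2F match that began at base 6 after the start, MCM7 held matches that began 187 and 9 bases before it, and PCNA held a match that began 59 bases before it. CHAF1B had no match to these letters in the window. RefSeq promoters were matched for 43 of the 50 genes, and 20 of these held E2F letters, or 46.5%. The share was 21.6% in 51 promoters of other replication genes and 3.33% in all 27305 promoters of the same length. CCAAT, the box read by NF-Y, was in 58.1% of the 43 promoters and 35.7% of all promoters. The CHR letters TTTGAA or TTCGAA, read in many mitotic genes, were in 4.65% of the 43 and 16.6% of all. The NFAT core GGAAA was in 72.1% of the 43 and 61.4% of all, but the reverse strand of TTTCCCGC contains it. Counting matches clear of the E2F letters, the shares were 60.5% and 60.7%. These matches are descriptions of letters and not of binding.

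Libraries held 40047459 to 44669709 counts. NFATC2, the target, stood at 1.49, 7.40 and 6.95 CPM with shRNA-143, at 2.59, 6.71 and 9.43 CPM with shRNA-146 and at 12.7, 27.6 and 27.4 CPM in control, so every shRNA library lay below every control library. All 11 THP-1 markers passed the filter, with sums of 890.5 to 1010 CPM for shRNA-143, 889.4 to 1023 CPM for shRNA-146 and 820.9 to 910.1 CPM in control. Of 8 markers of 293T cells 5 were matched by symbol, only KRT8 passed it, and the 5 summed to 3.47 to 3.81 CPM with shRNA-143, 2.19 to 2.77 CPM with shRNA-146 and 4.07 to 4.87 CPM in control. The 3 matched B cell markers summed to at most 10.8 CPM in a library, and the T cell marker TRAC and the erythroid marker HBA1 to at most 0.123 and 0.0717 CPM. The part of these cells in the results was not tested.

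The libraries numbered 1 stood apart in all 3 groups, and the replication genes showed it too. Of the 50, 18 (36%) were lower in all 3 libraries numbered 1 than in any of the other 6, against 20.3% of all tested genes, and 11 (22%) were higher, against 14.3%. Of 65 other replication genes, 21 were lower and 12 were higher in this way. CLSPN, the checkpoint adaptor claspin, averaged 4.34 ± 0.68 CPM in the libraries numbered 1 and 23.7 ± 7.14 CPM in the other 6 (SD). CHAF1A, the large subunit of chromatin assembly factor 1, averaged 12.9 ± 1.95 CPM in the libraries numbered 1 and 66.5 ± 19.1 CPM in the other 6. POLE, the catalytic subunit of DNA polymerase epsilon, averaged 15.8 ± 1.60 CPM in the libraries numbered 1 and 54.0 ± 12.8 CPM in the other 6. These genes were thus several-fold lower in the libraries numbered 1, whichever shRNA the cells carried. PCNA went the other way, with 432 ± 46.9 CPM in the libraries numbered 1 and 306 ± 65.3 CPM in the other 6.

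**Figure D1:**
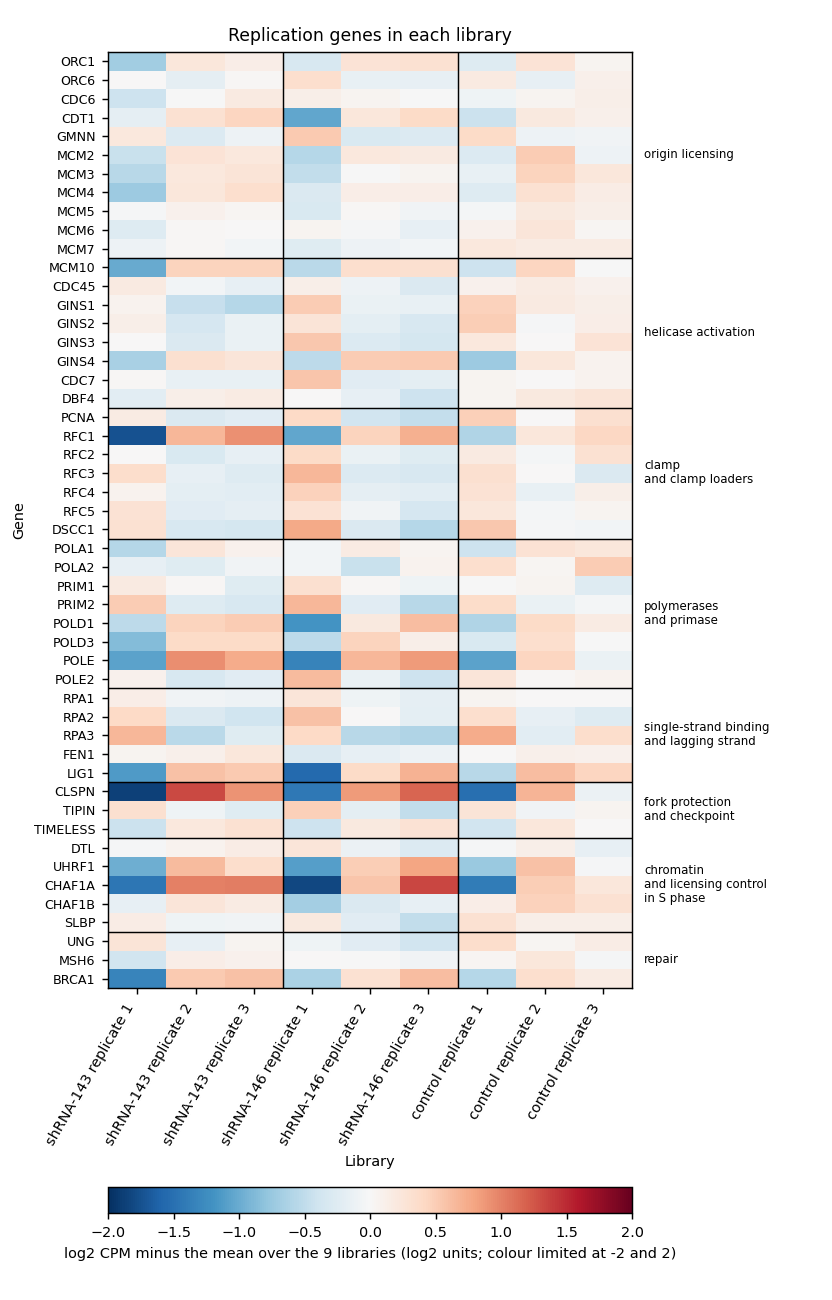
Colour shows the log2 CPM of each replication gene (down, grouped by role) in each of the 9 libraries (across) minus that gene's mean over the 9. The first column of each group, replicate 1, is blue for CLSPN, CHAF1A, POLE and RFC1 and red for RPA3 and DSCC1, in all 3 groups.

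The difference between libraries numbered 1 and the rest ran from -2.39 on the log2 scale for CLSPN to 0.90 for RPA3. Over all tested genes it ran from -4.49 to 5.11, and its SD was 0.82 over the 50 and 0.80 over all. The difference tended to be lower for genes of greater deposited length. Across the 50 genes, Pearson's r with log2 length was -0.594 and Spearman's rho -0.671. Across all 14975 genes the same values were -0.220 and -0.253. These correlations describe genes that share the same libraries, which are not independent points, and carry no test. What a replicate number shares is not stated, and the cause of the difference was not tested. Libraries of a number moved together, most clearly those numbered 1. Counts of genes are therefore given from a fit of the 3 groups and from a fit that adds the replicate number as a block.

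**Figure D2:**
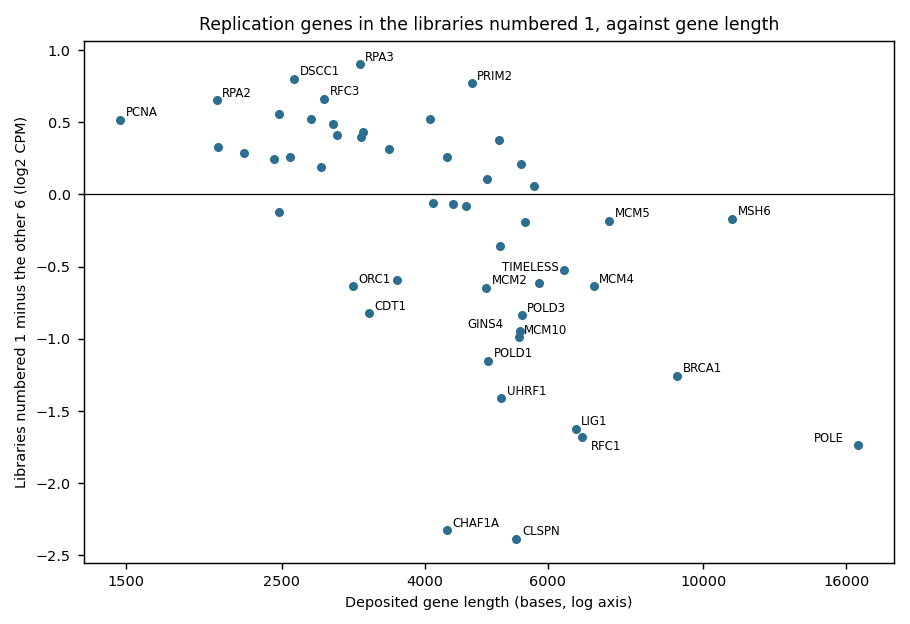
Each point is a replication gene, with the deposited gene length on a log axis and, upward, its mean log2 CPM in the 3 libraries numbered 1 minus that in the other 6. The shortest genes, such as PCNA and RPA2, lie mostly above 0, and LIG1, RFC1, BRCA1 and POLE, among the longest, lie below -1, but MSH6 and MCM5 are also long and lie at -0.17 and -0.18, and the lowest genes, CLSPN and CHAF1A, are of middle length.

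Per unit length, on the authors' FPKM scale, the 50 genes spanned a wide range of levels. PCNA was highest, at 213 ± 35.4 FPKM with shRNA-143, 213 ± 75.9 with shRNA-146 and 273 ± 46.0 in control (SD, n = 3 each). The helicase subunits MCM7 and MCM3 followed, with control means of 102 and 101 FPKM, and then SLBP at 80.1 FPKM. The other helicase subunits had control means of 62.5 FPKM for MCM6, 45.1 for MCM5, 38.7 for MCM2 and 31.3 for MCM4. MCM7 and MCM3 did not differ beyond their spread, with SDs of 3.93 and 19.1. Partners in a complex had unequal levels on this scale, as GINS1, GINS2, GINS3 and GINS4 averaged 29.6, 24.6, 6.61 and 2.34 FPKM in control. GINS1 and GINS2 overlapped within 1 SD (4.50 and 4.95). The deposited length equals all merged exon bases of a gene, so FPKM differences between genes depend on that length as well. The clamp loader subunit RFC2 averaged 42.5 FPKM in control and its largest partner RFC1 4.01 FPKM. The lowest 5 were POLA2, POLE, CLSPN, GINS4 and POLA1, at 1.79 to 2.58 FPKM in control, and their neighbours in that order overlapped within 1 SD.

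**Figure D3:**
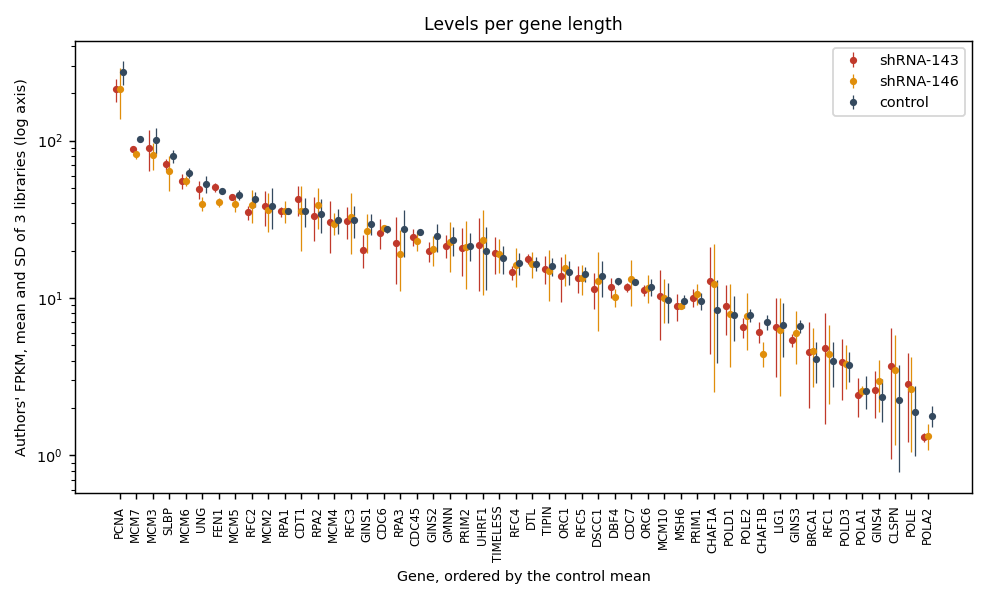
Points are group means and lines the SD of 3 libraries of the authors' FPKM on a log axis, with genes ordered by the control mean. PCNA leads at 273 FPKM in control and POLA2 is last at 1.79 FPKM.

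The comparison of each shRNA with control asks how these transcripts differed when NFATC2 was lowered. With either shRNA most replication genes lay slightly below control, and the differences were small. Without the block 35 of 50 genes lay below 0 with shRNA-143 (70%, against 47.8% of all tested genes) and 32 with shRNA-146 (64%, against 44.6%). Median log2 fold changes were -0.09 and -0.04, against 0.02 and 0.05 over all genes. Scaled by library size alone the medians were 0.02 and 0.07, above 0, and 23 and 18 of the 50 genes lay below 0, but the medians of all genes were 0.12 and 0.19 and 38.1% and 31.8% of all genes lay below 0. The medians of the 50 thus stayed below those of all genes, while their direction against control depended on the scaling. In bulk RNA, fewer cells in S phase and less of these RNAs per cell cannot be told apart.

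No replication gene passed adjusted p under 0.05 without the block in edgeR's quasi-likelihood test, for shRNA-143 (0.0467% of all genes passed), shRNA-146 (0.0334%) or the mean of both shRNAs set against control (0.0334%). At an unadjusted p under 0.05 the counts were 0 of 50 with shRNA-143 (against 6.8% of all genes), 2 with shRNA-146 (4%, against 8.81%) and 2 for the mean (4%, against 9.34%). DESeq2 also called none of the 50, against 0.681% of all genes with shRNA-143, 0.793% with shRNA-146 and 1.06% for the mean. Limma-voom called none either, but it called only 0.0401%, 0.0267% and 0.0334% of all genes. With the replicate block 1 gene passed in each comparison. That was GINS1 with shRNA-143 (2% of the 50, against 3.17% of all genes), and CHAF1B both with shRNA-146 (2%, against 4.42%) and for the mean (2%, against 5.74%). These shares were below the background in all 3 comparisons. NFATC2 itself passed with the block in each (adjusted p = 0.00168, 0.00435 and 0.000575, edgeR). Without the block it did not (adjusted p = 0.497, 0.464 and 0.325, edgeR), at log2 fold changes of -2.09, -1.85 and -1.97. A gene that did not pass without the block is therefore not shown to be unchanged. At an unadjusted p under 0.05 with the block, 10% of the replication genes and 20.7% of all genes passed with shRNA-143, 18% and 23.5% with shRNA-146, and 20% and 25.6% for the mean. For the mean, the block's 95% intervals of all 50 genes lay within -1 and 1 on the log2 scale, the lowest bound being -0.74 (POLA2) and the highest 0.99 (CLSPN). Without the block 42 of 50 did so. Of all 14975 tested genes, 11144 did so with the block and 8478 without it.

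**Figure D4:**
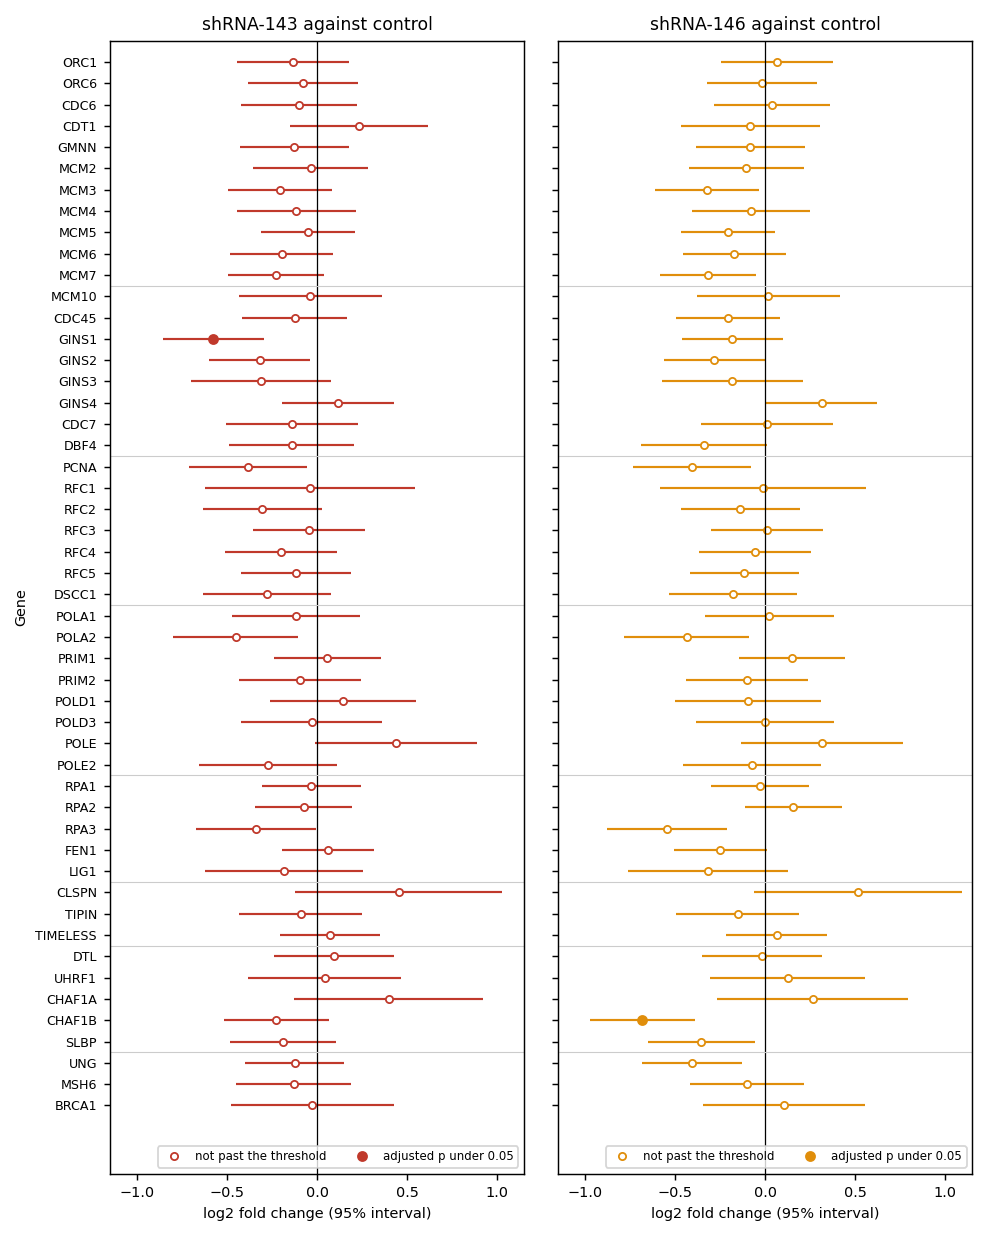
Points are log2 fold changes of the 50 replication genes against control for shRNA-143 (left) and shRNA-146 (right) from the fit with the replicate block, and lines are 95% intervals. Filled points, GINS1 on the left and CHAF1B on the right, have an adjusted p under 0.05, and most open points lie a little left of 0.

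Within a replicate number the share of genes below control varied. With shRNA-143, 37, 38 and 27 of 50 genes were below the control library of numbers 1, 2 and 3, with medians of -0.17, -0.09 and -0.05 (log2). Of all tested genes 49.26%, 49.35% and 50.54% were below it, with medians of 0.008, 0.005 and -0.010. With shRNA-146 the counts were 28, 39 and 33, with medians of -0.04, -0.17 and -0.19. The shares of all tested genes were 48.41%, 49.28% and 50.17%, with medians of 0.022, 0.005 and -0.002. Summed over the 50 genes, the libraries held 4425, 4999 and 5045 CPM with shRNA-143 and 4736, 4723 and 4701 CPM with shRNA-146, against 5010, 5425 and 5159 CPM in control. In TMM-scaled CPM the sums of shRNA-146 lay below all control sums. Of the 3 sums of shRNA-143, 1 exceeded that of control replicate 1. As shares of all counts in a library, the 50 genes held 0.398%, 0.549% and 0.531% with shRNA-143 and 0.427%, 0.516% and 0.538% with shRNA-146. In control the shares were 0.449%, 0.562% and 0.473%, so on this scale each shRNA overlapped control. Both comparisons use the same control libraries, so they are not independent.

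Leaving out all 3 libraries numbered 1, an alternative chosen after seeing the data that leaves 2 libraries a group, changed the counts. Only 2 residual degrees of freedom remained with the block and 3 without it. The same limits, and the shares of all genes given next, apply wherever single genes are given below without these libraries. With the block, 3 genes passed with shRNA-143 (6%, against 10.4% of all genes), 7 with shRNA-146 (14%, against 13.9%) and 11 for the mean (22%, against 19.1%). Without the block 1 passed with shRNA-143 (2%, against 3.89%), 2 with shRNA-146 (4%, against 6.28%) and 4 for the mean (8%, against 10.1%). Of the 11, CHAF1B, DSCC1, GINS1, GINS3, PCNA, POLA2, RPA3 and SLBP were lower and CLSPN, POLE and RFC1 higher with the shRNAs. These shares lay near or below the background. Leaving out shRNA-146 replicate 1 alone, with the block, gave 3 genes with shRNA-143 (6%, against 13.7%), 5 with shRNA-146 (10%, against 11.4%) and 10 for the mean (20%, against 20.1%). The 10 were CHAF1B, DBF4, DSCC1, GINS1, GINS2, GINS3, PCNA, POLA2, RPA3 and SLBP.

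Of the 11 licensing genes, 10 had a mean over both shRNAs below control without the block (median -0.08), but 4 did with library size alone as the scaling (median 0.06), and none passed. Of all genes 46.5% lay below 0 for the mean without the block (median 0.03), and 49% with it (median 0.01). With library size alone 35.2% did (median 0.15). These shares and medians of all genes also apply to the other role groups below. MCM7, a subunit of the hexameric MCM helicase, had 376, 406 and 387 CPM with shRNA-143 and 339, 375 and 385 CPM with shRNA-146, against 467, 451 and 449 CPM in control. In TMM-scaled CPM all 6 shRNA libraries lay below all 3 control libraries. This held for 1 of the 50 genes (2%) and for 2.77% of all genes. All 6 lay above for none of the 50 and 3.08% of all. Over library totals alone the groups overlapped. There shRNA-143 replicate 2 held 19615 MCM7 counts of 43906182, and control replicate 3 held 16499 of 40047459. The mean log2 fold change was -0.27 ± 0.13 without the block and -0.27 ± 0.10 with it (SE, n = 3 libraries a group), and edgeR's adjusted p was 0.577 and 0.132. MCM7 has 8.94% of its exon bases under AP4M1 on the other strand, and no source used here says whether counting used strand.

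The other helicase subunits had mean log2 fold changes of -0.25 to -0.06 without the block. MCM6 stood at 202, 244 and 241 CPM with shRNA-143 and 248, 236 and 214 CPM with shRNA-146, against 256, 284 and 247 CPM in control. In TMM-scaled CPM all shRNA-143 libraries were below control, and 1 shRNA-146 library overlapped it. Over library totals alone shRNA-143 overlapped control too. There shRNA-143 replicate 2 held 11793 MCM6 counts of 43906182, and control replicate 1 held 9492 of 41413187. MCM3 stood at 224, 380 and 390.5 CPM with shRNA-143 and 234, 327 and 342 CPM with shRNA-146, against 298, 445 and 384.5 CPM in control, and the groups overlapped. The mean log2 fold changes were -0.18 ± 0.14 for MCM6 and -0.25 ± 0.23 for MCM3 without the block, and neither passed in any fit. MCM2, MCM4 and MCM5 were at -0.06, -0.08 and -0.13. The loading factors ORC1, ORC6 and CDC6 were at -0.01, -0.05 and -0.03, the inhibitor geminin (GMNN) at -0.09, and the loader CDT1 alone was above 0, at 0.11. MCM2 has 23.6% of its exon bases under opposite-strand genes.

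Among the 8 helicase activation genes GINS1 fell with shRNA-143. GINS1 (ENSG00000101003, chromosome 20, 25407727 to 25452628, plus strand, hg38) encodes a subunit of the GINS complex, which holds CDC45 and the MCM ring together as the active helicase. It had 108, 74.1 and 69.1 CPM with shRNA-143 and 145.7, 93.0 and 92.0 CPM with shRNA-146, against 142, 115.5 and 111 CPM in control. All shRNA-143 libraries were below control, while shRNA-146 replicate 1 was above every control library. With the block its log2 fold change for shRNA-143 was -0.58 ± 0.13 (adjusted p = 0.0372, edgeR), and it was lower in 3 of 3 libraries of the same number. Without the block it was -0.55 ± 0.25 with an adjusted p of 0.742. For shRNA-146 it was -0.18 ± 0.13 with the block (adjusted p = 0.415). The call held in 2 of 9 fits that left out a library, those without shRNA-146 replicate 1 or replicate 3, and was lost without any of the other 7, with edgeR's adjusted p from 0.00601 to 0.26 and log2 fold changes from -0.67 to -0.53. With the block and library size alone as the scaling, the log2 fold change was -0.48 and edgeR's adjusted p 0.0521. Without the libraries numbered 1 it was -0.65 ± 0.11 (adjusted p = 0.00939).

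**Figure D5:**
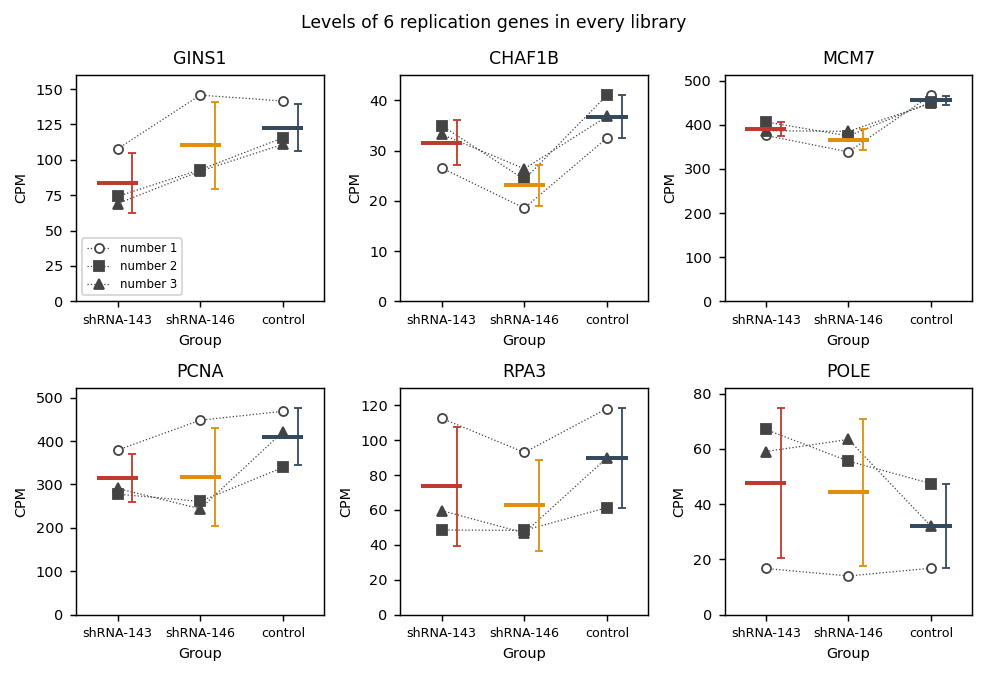
Points are the CPM of GINS1, CHAF1B, MCM7, PCNA, RPA3 and POLE in every library, joined by replicate number, with thick bars for group means and thin bars for the SD of 3 libraries. GINS1 is lowest with shRNA-143 and CHAF1B with shRNA-146 in each number, and RPA3 and POLE vary more between number 1 and the others than between groups.

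The partners of GINS1 did not pass with all libraries. GINS2 stood at 76.2, 56.0 and 64.0 CPM with shRNA-143 and 84.2, 61.8 and 56.5 CPM with shRNA-146, against 98.8, 69.1 and 77.6 CPM in control. The groups overlapped, although each shRNA library was below the control library of its number. GINS2 had a mean log2 fold change of -0.30 ± 0.19 without the block and -0.30 ± 0.11 with it (adjusted p = 0.685 and 0.121, edgeR), and of -0.32 with the block and without shRNA-146 replicate 1 (adjusted p = 0.0353). GINS3 had 30.6, 24.9 and 28.0 CPM with shRNA-143 and 44.4, 25.3 and 24.0 CPM with shRNA-146, against 35.5, 30.6 and 37.0 CPM in control. Its shRNA-143 libraries were below control by a margin as small as 30.56 against 30.62 CPM, and its shRNA-146 libraries spanned the control range. With the block its mean log2 fold change was -0.25 ± 0.15 (adjusted p = 0.33, edgeR), at -0.40 ± 0.11 without the libraries numbered 1 (adjusted p = 0.0338) and -0.37 without shRNA-146 replicate 1 (adjusted p = 0.0274). GINS4 was at 0.23 for the mean, above control, and has 23.6% of its exon bases under opposite-strand genes.

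CDC45, the third component of the active helicase, had 80.1, 67.9 and 62.7 CPM with shRNA-143 and 76.1, 65.5 and 57.4 CPM with shRNA-146, against 74.7, 78.5 and 74.8 CPM in control. The shRNA libraries numbered 1 were above the control library of that number and the others were below theirs, and the mean log2 fold change was -0.16 ± 0.15 without the block. DBF4, the regulatory subunit of the kinase that fires origins, had 45.8, 57.7 and 59.3 CPM with shRNA-143 and 53.4, 47.7 and 40.1 CPM with shRNA-146, against 55.0, 60.8 and 63.6 CPM in control. In TMM-scaled CPM all its shRNA-146 libraries lay below control and its shRNA-143 libraries overlapped. Over library totals alone its shRNA-146 libraries overlapped control too. There shRNA-146 replicate 2 held 2327 DBF4 counts of 44669709, and control replicate 1 held 2043 of 41413187. The log2 fold change with shRNA-146 was -0.34 ± 0.19 without the block and -0.34 ± 0.16 with it (adjusted p = 0.647 and 0.224, edgeR), and -0.50 ± 0.13 with the block and without the libraries numbered 1 (adjusted p = 0.0305). CDC7, the catalytic subunit, was at -0.04 and MCM10, also among the helicase activation genes, at 0.05 for the mean.

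Of the 7 clamp and clamp loader genes 5 lay below control for the mean without the block (median -0.12), 4 with library size alone as the scaling (median -0.01) and all 7 with the block, and none passed with all libraries. PCNA, the ring that tethers polymerases to DNA, had 379, 278 and 291 CPM with shRNA-143 and 448, 261 and 244 CPM with shRNA-146, against 469, 339 and 421 CPM in control. The groups overlapped, and replicate 1 was highest in each, yet each shRNA library was below the control library of its number. Its mean log2 fold change was -0.37 ± 0.23 without the block and -0.39 ± 0.13 with it (adjusted p = 0.671 and 0.0867, edgeR). Without the libraries numbered 1 and with the block it was -0.50 ± 0.11 (adjusted p = 0.0186). PCNA has pseudogenes named PCNAP1, PCNAP3 and PCNAP4, so some of its reads could be shared.

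RFC2, a small subunit of the clamp loader, had 87.0, 70.1 and 77.1 CPM with shRNA-143 and 113, 79.1 and 72.9 CPM with shRNA-146, against 97.7, 83.9 and 106 CPM in control. The groups overlapped, and the mean log2 fold change was -0.21 ± 0.18 without the block. RFC3, RFC4 and RFC5, the other small subunits, were at 0.01, -0.12 and -0.10. DSCC1, part of the alternative loader that acts in cohesion, had 39.8, 25.7 and 25.2 CPM with shRNA-143 and 54.4, 26.2 and 21.7 CPM with shRNA-146, against 46.6, 31.8 and 31.0 CPM in control. The groups overlapped through the libraries numbered 1, and in numbers 2 and 3 each shRNA library was below control. Its mean log2 fold change was -0.18 ± 0.31 without the block and -0.23 ± 0.14 with it (adjusted p = 0.88 and 0.323, edgeR), and -0.34 ± 0.11 with the block and without the libraries numbered 1 (adjusted p = 0.0488). RFC1, the large subunit, was at 0.19 without the block and -0.03 with it, and without the libraries numbered 1 at 0.36 ± 0.10 with the block (adjusted p = 0.0369, edgeR). Its values were 7.82, 41.2 and 48.9 CPM with shRNA-143 and 12.7, 35.4 and 42.7 CPM with shRNA-146, against 17.3, 30.6 and 34.8 CPM in control, so the shRNA libraries were below control in number 1 and above it in numbers 2 and 3.

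The 8 polymerase and primase genes were divided, with 4 below and 4 above control for the mean without the block (median 0.00) and 2 below with library size alone (median 0.12), and none passed with all libraries. POLA2, the accessory subunit of the primase-bound polymerase alpha, had 7.51, 7.15 and 8.02 CPM with shRNA-143 and 8.10, 6.21 and 8.87 CPM with shRNA-146, against 10.6, 8.67 and 12.0 CPM in control. All shRNA-143 libraries were below control, and 1 shRNA-146 library just overlapped. Its mean log2 fold change was -0.45 ± 0.19 without the block and -0.44 ± 0.13 with it (adjusted p = 0.506 and 0.0752, edgeR). With the block it was -0.44 ± 0.14 without the libraries numbered 1 (adjusted p = 0.0487) and -0.46 without shRNA-146 replicate 1 (adjusted p = 0.0233). POLA2 shares 35.1% of its exon bases with a same-strand gene model, AP000944.2, so its count is uncertain.

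POLE had 16.7, 67.0 and 59.0 CPM with shRNA-143 and 14.0, 55.5 and 63.4 CPM with shRNA-146, against 16.8, 47.4 and 32.0 CPM in control. In number 1 the shRNA libraries were at or below control, and in numbers 2 and 3 they were above it. Its mean log2 fold change was 0.52 ± 0.57 without the block and 0.38 ± 0.18 with it (adjusted p = 0.825 and 0.215, edgeR), and 0.65 ± 0.15 with the block and without the libraries numbered 1 (adjusted p = 0.0205). Its partner POLE2 was at -0.14 for the mean. The catalytic subunits POLA1 and POLD1 were at -0.06 and 0.09, the polymerase delta subunit POLD3 at 0.04, and the primase subunits PRIM1 and PRIM2 at 0.11 and -0.03.

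Of the 5 single-strand binding and lagging strand genes 4 were below control for the mean (median -0.09), but 1 was with library size alone (median 0.06), and none passed with all libraries. RPA3, the smallest subunit of replication protein A, had 112.5, 48.5 and 59.6 CPM with shRNA-143 and 92.9, 48.3 and 46.8 CPM with shRNA-146, against 118, 61.3 and 89.9 CPM in control. The groups overlapped, and each shRNA library was below the control library of its number. Its mean log2 fold change was -0.40 ± 0.34 without the block and -0.44 ± 0.13 with it (adjusted p = 0.782 and 0.0663, edgeR), and -0.55 ± 0.12 with the block and without the libraries numbered 1 (adjusted p = 0.017). The larger subunits of the same trimer, RPA1 and RPA2, were at -0.02 and 0.06. The flap nuclease FEN1 was at 0.06 with shRNA-143 and -0.25 with shRNA-146, and the ligase LIG1, which seals Okazaki fragments, was at -0.10 for the mean.

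Of the 3 fork protection genes none passed with all libraries. CLSPN had 3.56, 32.5 and 24.2 CPM with shRNA-143 and 4.85, 23.5 and 29.2 CPM with shRNA-146, against 4.61, 20.9 and 11.9 CPM in control. The groups overlapped through the libraries numbered 1. For the mean of both shRNAs the log2 fold change was 0.65 without the block and 0.48 ± 0.23 with it (adjusted p = 0.215, edgeR), and 0.77 ± 0.21 with the block and without the libraries numbered 1 (adjusted p = 0.0384). TIMELESS and TIPIN, which form a complex that steadies the fork, were at 0.08 and -0.08.

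Among the 5 genes of chromatin and S phase licensing control CHAF1B fell. CHAF1B (ENSG00000159259, chromosome 21, 36385378 to 36419015, plus strand, hg38) encodes the p60 subunit of chromatin assembly factor 1, which places histones on new DNA. It had 26.5, 35.0 and 33.2 CPM with shRNA-143 and 18.6, 24.3 and 26.4 CPM with shRNA-146, against 32.5, 41.0 and 36.8 CPM in control. In TMM-scaled CPM all shRNA-146 libraries were below all control libraries, and shRNA-143 overlapped control. Each shRNA library was below the control library of its number on that scale. Over library totals alone shRNA-146 overlapped control too. There shRNA-146 replicate 3 held 1262 CHAF1B counts of 41822028, against 1208 of 41413187 in control replicate 1. Likewise shRNA-143 replicate 3 (1522 of 43489967) was not below control replicate 3 (1353 of 40047459). With the block the log2 fold change was -0.68 ± 0.13 for shRNA-146 (adjusted p = 0.0206) and -0.45 ± 0.11 for the mean (adjusted p = 0.043, edgeR). For shRNA-143 it was -0.23 ± 0.13 with the block (adjusted p = 0.356). Without the block edgeR's adjusted p was 0.429 for shRNA-146 and 0.478 for the mean. With the block and library size alone as the scaling, it was 0.0648 and 0.13, at log2 fold changes of -0.55 and -0.34.

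The CHAF1B call for shRNA-146 held in 4 of 9 fits that left out a library, those without shRNA-143 replicate 1 or 3 or shRNA-146 replicate 1 or 3, and was lost without any of the other 5, with log2 fold changes from -0.77 to -0.64 and edgeR's adjusted p from 0.0122 to 0.124. The call for the mean held in 2 of 9, those without shRNA-146 replicate 1 or 3, and was lost without any of the other 7, with adjusted p from 0.0132 to 0.199. Without the libraries numbered 1 the log2 fold change for shRNA-146 was -0.62 ± 0.13 with the block (adjusted p = 0.0145). CHAF1A, its partner subunit, had 13.8, 75.3 and 76.7 CPM with shRNA-143 and 10.7, 55.0 and 95.2 CPM with shRNA-146, against 14.2, 53.0 and 44.0 CPM in control. CHAF1A was thus below control in number 1 and above it in numbers 2 and 3, and its mean log2 fold change of 0.55 did not pass.

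SLBP, which binds the stem-loop of histone mRNAs in S phase, had 161, 137 and 138 CPM with shRNA-143 and 167, 124 and 103 CPM with shRNA-146, against 180.3, 158 and 158 CPM in control. The groups overlapped, and in TMM-scaled CPM each shRNA library was below the control library of its number. Over library totals alone shRNA-143 replicate 3 (6308 of 43489967) was not below control replicate 3 (5793 of 40047459). For SLBP the mean log2 fold change was -0.26 ± 0.17 without the block and -0.27 ± 0.11 with it (adjusted p = 0.701 and 0.167, edgeR), and -0.33 ± 0.10 with the block and without the libraries numbered 1 (adjusted p = 0.0478). DTL, a ubiquitin ligase adaptor that destroys CDT1 on DNA, was at 0.04, and UHRF1, which recruits the maintenance DNA methyltransferase, at 0.17.

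Of the 3 repair genes none passed. UNG, the uracil DNA glycosylase, had 145, 109 and 127 CPM with shRNA-143 and 114, 104 and 93.4 CPM with shRNA-146, against 155, 125 and 134 CPM in control. Its shRNA-146 libraries were all below control and its shRNA-143 libraries overlapped. The log2 fold change with shRNA-146 was -0.41 ± 0.18 without the block and -0.41 ± 0.13 with it (adjusted p = 0.56 and 0.0875, edgeR). The mismatch repair gene MSH6 and the recombination gene BRCA1 were at -0.11 and 0.14 for the mean.

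The direct comparison of shRNA-146 with shRNA-143 asks whether the hairpins differed. In edgeR's test no replication gene passed without the block (0.0467% of all genes passed) or with it (1.2%). Unadjusted p under 0.05 was reached by 0 genes without the block (against 3.75% of all genes) and by 4 with it (8%, against 10.4%). DESeq2 and limma-voom called 0 of the 50, against 0.393% and 0.0534% of all genes. With the block GINS1 was 0.39 ± 0.13 higher with shRNA-146 (95% interval 0.12 to 0.67, adjusted p = 0.243), although it passed against control with shRNA-143 alone. CHAF1B was 0.46 lower on the same scale, at -0.46 ± 0.13 (interval -0.75 to -0.17, adjusted p = 0.175). Neither gene was thus shown to respond differently to the hairpins. The median over the 50 genes was 0.00 without the block and 0.03 with it, against 0.01 and 0.00 over all genes.

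A further 65 replication, repair and S phase genes, listed with earlier results known, were measured beside the 50. None passed without the block in edgeR's test, with 2 (3.08%) at an unadjusted p under 0.05 in each comparison with control, against 6.8% of all genes with shRNA-143, 8.81% with shRNA-146 and 9.34% for the mean. With the block RMI1 and RMI2, partners of the BLM helicase, passed with shRNA-143 at -0.60 ± 0.14 (adjusted p = 0.0403) and -0.89 ± 0.17 (adjusted p = 0.021), and none passed with shRNA-146. Of all genes 3.17% passed with shRNA-143 and 4.42% with shRNA-146. For the mean, where 5.74% of all genes passed, RMI2 was at -0.73 ± 0.14 (adjusted p = 0.0169) and the histone chaperone ASF1B at -0.43 ± 0.10 (adjusted p = 0.0375). Of the 65, 50.8% lay below 0 for the mean without the block, against 68% of the 50 and 46.5% of all tested genes.

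In the authors' deposited table no replication gene passed either. The lowest adjusted p with shRNA-143 was 0.618, for GINS1 at a log2 fold change of -0.54, and with shRNA-146 it was 0.506, for CHAF1B at -0.66. NFATC2 did pass there, at the authors' adjusted p of 0.0206 with shRNA-143 and 0.0398 with shRNA-146. The share of all genes that passed there is not given here.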

How the data were processed

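RNA-seq libraries of THP-1 cells were analysed, 3 for each of shRNA-143, shRNA-146 and a non-targeting control. The authors deposited raw counts per gene. Their comparison tables also hold normalized counts, a signal that the authors made by dividing counts by 1 size factor per library, FPKM values proportional to counts over the deposited gene length, log2 fold changes and p-values. Named in the submitters' processing notes, without roles, are hg38, DESeq2, featureCounts, STAR 2.5 and fastp. Whether counting was stranded is not stated. Of the 50 genes, 22 have exon bases that overlap another gene in GENCODE 29, 8 of them over 10%, and 7 have pseudogenes named after them, so their counts are uncertain.

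After filterByExpr and TMM scaling, edgeR 4.0.16 (R 4.3.3) fitted all 9 libraries at once with its robust quasi-likelihood test, with Benjamini-Hochberg adjustment over 14975 genes and a threshold of 0.05. CPM values are TMM-scaled, and standard errors and 95% intervals follow from the F statistic. Tested genes held at least 99.9% of counts. The script was tested on simulated data. The replicate number was added as a block in a further fit (6 residual degrees of freedom without it, 4 with it). Libraries sharing a number deviated together from their group means (9 correlations of 0.252 to 0.758, against -0.678 to 0.535 in 18 pairs of different numbers), so all were over 0.1. The labels give numbers alone, so the pairing rests on the data. It was clear for number 1 but mixed for numbers 2 and 3. The shRNA libraries numbered 3 correlated better with control replicate 2 (0.45 and 0.52) than with control replicate 3 (0.33 and 0.25). Those numbered 2 correlated better with control replicate 2 (0.67 and 0.54) than with control replicate 3 (0.11 and 0.10). Alternatives were DESeq2 1.42.0, limma-voom (limma 3.58.1), other scalings, no filter, a length correction and leaving out libraries.

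The 50 genes and all lists were chosen with earlier results of these data known. Values in every library are printed for genes past the threshold in the fits of all 9 libraries and for those next by p, up to 16. CLSPN, CHAF1A, DSCC1 and RFC1 were added to these after their values were seen. Promoters came from RefSeq (GRCh38.p14), with 1 per gene.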

Additional observations from a re-analysis of the deposited data

How the results depend on the processing

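Counts and medians of the 50 replication genes are given here for shRNA-143, shRNA-146 and the mean of both against control. In edgeR without the block 0 genes passed in each, with medians of -0.09, -0.04 and -0.08 (log2), and TMM, DESeq2 size factors, library size alone, no filter, DESeq2 and limma-voom all gave 0 there and for shRNA-146 against shRNA-143. Of all genes these fits called 2 to 149. Library size alone moved the medians to 0.019, 0.068 and 0.053, above 0, while those of all genes moved to 0.12, 0.19 and 0.15. Limma-voom gave a median of -0.10 for the mean. The replicate block gave 1 gene in each of the 3 comparisons (474, 662 and 859 of all genes), 1 each again with a length correction (397, 438 and 652), and a median for the mean of -0.10 in both. With the block and library size alone, chosen after seeing the data, 0 genes passed (414, 835 and 858 of all genes) and medians were -0.018, 0.044 and 0.017. Without the libraries numbered 1, also chosen then, 1, 2 and 4 genes passed without the block (589, 951 and 1525 of all genes) and 3, 7 and 11 with it (1575, 2111 and 2902), the median being -0.17 for shRNA-146 and -0.12 for the mean in both. Leaving out 1 library without the block gave 0 genes (1 to 28, 0 to 3 and 0 to 5 of all genes). The medians there ran from -0.14 to -0.07 (shRNA-143), -0.18 to -0.040 (shRNA-146) and -0.13 to -0.061 (mean). With the replicate block, leaving out shRNA-146 replicate 1 gave 3, 5 and 10 genes (2099, 1745 and 3075 of all genes), and leaving out shRNA-146 replicate 3 gave 1, 1 and 1 (1050, 329 and 912). Leaving out shRNA-143 replicate 1 gave 0, 1 and 0 (114, 563 and 647 of all genes), as did leaving out its replicate 3 (55, 307 and 216). Leaving out any other library gave 0 (58 to 237, 27 to 270 and 14 to 499 of all genes). Over all these fits that left out a library with the block, the medians ran from -0.17 to -0.04, from -0.19 to -0.013 and from -0.14 to -0.065. For the mean, they were -0.065 without shRNA-143 replicate 1, -0.10 without replicate 2 and -0.12 without replicate 3, -0.14 without shRNA-146 replicate 1, -0.069 without replicate 3, -0.12 without control replicate 1, -0.092 without replicate 2 and -0.13 without replicate 3. For shRNA-146 against shRNA-143 no gene passed in any of these fits, and its median ran from -0.08 to 0.07 over the left-out libraries. The cause of these changes was not tested. All 18 gene results followed, those of the 16 named genes for the mean and of GINS1 and CHAF1B for a hairpin each, had the same direction under every alternative. Counts of libraries within a group differed beyond counting noise (chi-square per degree of freedom 22.4 to 432), as those of separate libraries do, so the errors given are those between libraries.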
